A study of Mus musculus with 8 samples.

Results

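Interleukin receptor chains are the cell-surface proteins through which macrophages read interleukins. The chains described here are those outside the IL-1 family, chosen by name as Il2rg, Il4ra, Il6ra, Il6st, Il10ra, Il10rb, Il13ra1, Il15ra, Il17ra and Il21r, 10 genes in all. Every probe of the deposited bead-array table whose platform gene symbol was one of these names was taken, without reference to its signal, which gave 19 of 45281 probes. These 19 probes covered 9 of the 10 genes. No probe was named for Il2rg in the annotation used, and Il2rg was not analysed here. A probe was tested if it was detected, with a detection p under 0.01 against the negative controls of its array, on at least 2 of the 8 arrays. In this way 14 of the 19 probes and 7 of the 10 genes were tested, among 8306 genes tested in all.

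The cells were primary macrophages grown from the bone marrow of male mice 10 weeks old. One genotype was wild type and the other was labelled Bcl6-/-, both on the c57Bl6/J background. Bcl6 is a zinc-finger repressor of transcription whose DNA motif resembles that of the Stat factors. Both genotypes were studied without stimulation and after LPS, the bacterial lipid sensed through Tlr4, at a dose and for a time not given in the sources used here, and each of the 4 groups was hybridised to 2 arrays called technical replicates. Every group mean therefore has n = 2 arrays, and a p-value here covers array-to-array spread alone, not that of mice or cultures.

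Most of these receptors work as pairs, in which a private chain binds the cytokine and a shared chain completes the signal. Il6ra binds IL-6 and hands it to Il6st, the gp130 chain that also serves oncostatin M, LIF and IL-27. Il10ra and Il10rb form the receptor of IL-10, the cytokine that restrains inflammatory gene expression in macrophages, and Il10rb also serves IL-22 and the lambda interferons. Il4ra pairs with Il2rg for IL-4, or with Il13ra1 for IL-4 and IL-13, the cytokines of alternative activation. Il2rg, the common gamma chain, also completes the receptors of IL-7, IL-9, IL-15 and IL-21, the last of them bound by Il21r. Il15ra differs in that it presents IL-15 to neighbouring cells. The complexes above signal through Janus kinases and Stat factors, whereas Il17ra, the shared chain of the IL-17 receptors, signals through the adaptor Traf3ip2.

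The signal is the log2 of the bead intensity after background correction and quantile normalization between arrays. A gene with several tested probes is represented by its brightest. A change is a difference of log2 signals ± its standard error from a limma fit over all 8306 genes, and a gene was called higher or lower at a Benjamini-Hochberg adjusted p under 0.05 with at least a 2-fold change. Where neither array of a group detected a probe, only a lower bound of the fold is printed, set against the lowest signal detected on those arrays. Between 11857 and 13209 probes were detected per array, and the median raw intensity ran from 112.1 and 113.7 on the arrays labelled knockout with LPS to 128.2 and 130.2 on the wild-type unstimulated arrays. The number of arrays limits the precision.

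The targeted gene checked the labels. The log2 signal of the single Bcl6 probe was 10.95 and 10.92 in wild type unstimulated, 10.75 and 10.99 in wild type with LPS, 12.60 and 12.33 in the labelled knockout unstimulated, and 9.92 and 9.93 in the labelled knockout with LPS. The signal was thus higher, not lower, in the unstimulated labelled knockout, by 1.53 ± 0.13 (limma's adjusted p = 4.76e-05). The deleted part of the gene is not given by the labels, so the probe does not settle the genotype, and each genotype direction that follows rests on the labels.

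Macrophage identity was checked on 10 markers, of which 9 were tested and all 9 were detected on 8 of 8 arrays, among them Csf1r, Adgre1 and Itgam. The summed linear signal of these 9 markers was 102849 to 103793 in wild type unstimulated and 106265 to 107123 in the labelled knockout unstimulated. With LPS it was 118031 to 136611 in wild type and 126405 to 139308 in the labelled knockout. The brightest genes weigh most in this sum, so it does not measure macrophage content. In wild type unstimulated these were Lyz2, at a log2 signal of 15.78 and 15.81, and Cd14, at 14.70 and 14.56. Within this list Mrc1 and Msr1, a mannose and a scavenger receptor, were higher in the unstimulated labelled knockout by 1.32 ± 0.17 and 1.07 ± 0.12 (limma's adjusted p = 0.000481 and 0.000212), and Csf1r differed by -0.62 ± 0.14, not called. Cd14, the LPS co-receptor, rose with LPS in the labelled knockout by 1.08 ± 0.13 (limma's adjusted p = 0.000155). In wild type it rose by 0.97 ± 0.13 (limma's adjusted p = 0.000316), slightly under 2-fold and so not called. All 8 stromal and all 8 dendritic cell markers failed the detection filter. Of 10 T cell markers only Cd8b1 was tested, with Cd3d, Cd3e and Cd3g failing, and it was detected on 8 of 8 arrays and lower with LPS by -1.23 ± 0.13 in wild type and -1.15 ± 0.13 in the labelled knockout (limma's adjusted p = 7.93e-05 and 0.000112). The NK cell marker Prf1, 1 tested of 7, was detected on 8 of 8 arrays and the B cell marker Cd22, 1 tested of 8, on 4, and neither was called in any comparison.

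Markers of granulocytes and their precursors were tested for 15 of 16 genes and differed between genotypes. Their summed linear signal was 25310 to 28127 in wild type unstimulated and 23210 to 23372 in wild type with LPS, against 9521 to 10412 and 13711 to 14514 in the labelled knockout. Bright genes weigh most in such a sum. The brightest in wild type unstimulated were S100a8, at a log2 signal of 13.61 and 13.84, and S100a9, at 12.44 and 12.51. Lcn2 and Mpo, granule proteins, were lower in the unstimulated labelled knockout by -1.91 ± 0.12 and -2.65 ± 0.20, and the proteases Prtn3 and Elane by at least 3.82-fold and 4.06-fold (limma's adjusted p at most 5.75e-05 for each of the 4). Of these 15 genes 12 were lower and 0 higher in the unstimulated labelled knockout, where 3.96% of all genes were lower. Under LPS 5 were lower and 2 higher, the latter Csf3r and Mmp8, where 4.97% and 6.19% of all genes were. Prtn3, Elane, Ctsg, Cebpe and Cd177 were detected on wild-type arrays alone, and Mmp8 on the labelled knockout LPS arrays alone. Their direction was thus fixed by the detection filter, and the counts that include them are description only. Kit, the 1 tested gene of 8 mast cell markers, was detected on 0 arrays labelled knockout. Granulocytes too express several of the receptor chains below, and the part of these markers in the results was not tested. In RNA from whole cultures, fewer cells of a type and less RNA per cell cannot be told apart.

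**Figure D1:**
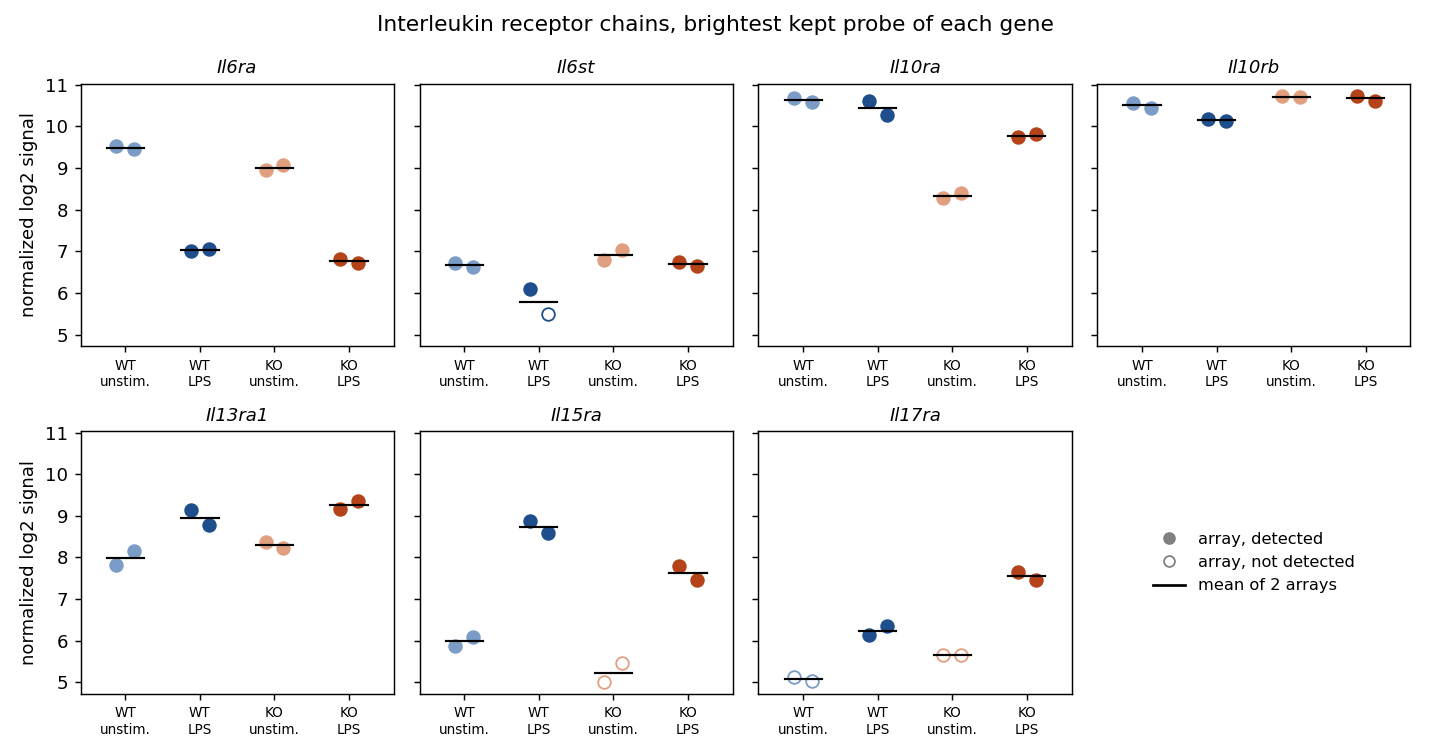
Normalized log2 signal of the brightest kept probe of each of the 7 tested receptor chains, with 1 point per array (filled where detected, open where not) and a bar at the mean of 2 arrays. WT is wild type and KO the arrays labelled Bcl6 knockout, and levels of different genes rest on different probes and cannot be compared. Il6ra is near 9 without LPS and near 7 with it in both genotypes, while Il10ra is lowest in the unstimulated labelled knockout, at 8.27 and 8.40.

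Il10ra, the ligand-binding chain for IL-10, showed the largest difference between genotypes among these receptors. Its single probe read a log2 signal of 10.68 and 10.58 in wild type unstimulated and 10.61 and 10.27 in wild type with LPS. On the arrays labelled knockout it read 8.27 and 8.40 without LPS and 9.75 and 9.82 with LPS. The unstimulated labelled knockout lay below all other arrays, and the labelled knockout with LPS lay between it and both wild-type groups, without overlap. The same order was visible in the deposited raw intensity, at 1912 and 1630 in wild type unstimulated against 410.3 and 426.5 in the labelled knockout.

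Set against wild type, Il10ra was lower in unstimulated labelled knockout cells by a factor of 4.91 (-2.30 ± 0.13, limma's adjusted p = 5.3e-06). With LPS the difference was -0.66 ± 0.13, with a 95% confidence interval from -0.96 to -0.35 and limma's adjusted p = 0.00471, short of 2-fold. LPS itself changed Il10ra by -0.20 ± 0.13 in wild type, an interval from -0.50 to 0.11, and raised it by 1.44 ± 0.13 in the labelled knockout (limma's adjusted p = 4.24e-05). The LPS effect differed between genotypes by 1.64 ± 0.19 (limma's adjusted p = 0.00218). Each of these Il10ra calls was made under all 19 alternative settings, with values for the unstimulated difference from -2.36 to -1.97. The reading rests on 1 probe. The summed granulocyte marker signal was lower in the labelled knockout as well, without LPS and with it. With LPS 5 of 15 markers were lower and 2 higher, some in a direction fixed by the detection filter. The part of these markers in the Il10ra result was not tested.

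Il10rb, the partner chain of the IL-10 receptor, did not share this pattern. Its brightest probe read 10.55 and 10.45 in wild type unstimulated, 10.18 and 10.13 in wild type with LPS, 10.74 and 10.70 in the labelled knockout unstimulated and 10.74 and 10.61 in the labelled knockout with LPS. All 8 arrays lay within 1 log2 unit, and the arrays of wild type with LPS were the lowest. In the unstimulated cells the genotypes differed by 0.21 ± 0.11, with an interval from -0.03 to 0.46. With LPS the difference was 0.52 ± 0.11, with an interval from 0.28 to 0.76 and limma's adjusted p = 0.00465, below 2-fold. The second Il10rb probe, detected on 8 of 8 arrays, was called in no comparison either, with a value of -0.22 ± 0.22 for the unstimulated genotype difference. The 2 probes followed each other only in part, with r = 0.537 over the 8 arrays. For LPS in the labelled knockout the brightest read -0.04 ± 0.11 and the second 0.55 ± 0.22 in the fit over all kept probes.

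Il6ra, the chain that binds IL-6, was the only tested chain called lower with LPS. Its brightest probe read 9.52 and 9.45 in wild type unstimulated and 7.01 and 7.05 with LPS. The labelled knockout read 8.96 and 9.07 without LPS and 6.83 and 6.72 with it. Unstimulated and LPS arrays did not overlap in either genotype. LPS lowered Il6ra by a factor of 5.48 in wild type (-2.45 ± 0.11, limma's adjusted p = 5.91e-07) and by a factor of 4.72 in the labelled knockout (-2.24 ± 0.11, limma's adjusted p = 8.29e-07). The difference between these effects was 0.22 ± 0.15, with an interval from -0.13 to 0.56.

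Both further Il6ra probes gave the same direction in a fit over all 14418 kept probes. Probe ILMN_1216057 read 7.11 and 7.46 in wild type unstimulated and 6.18 and 5.63 with LPS, a change of -1.38 ± 0.20 (limma's adjusted p = 0.000838). In the labelled knockout it fell from 6.37 and 6.60 to below detection, at least 1.35-fold lower (limma's adjusted p = 0.000582). LPS changed 13.5% of all kept probes in wild type and 14.0% in the labelled knockout. Probe ILMN_2706430 fell below detection with LPS in both genotypes, at least 2.51-fold lower in wild type (limma's adjusted p = 5.3e-05) and at least 1.47-fold lower in the labelled knockout (limma's adjusted p = 0.000102). Without LPS all 3 probes were lower in the labelled knockout than in wild type, by -0.47 ± 0.11 on the brightest and by -0.80 ± 0.20 and -0.60 ± 0.15 on the others, none of which reached 2-fold, where 7.92% of all kept probes were called.

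Il6st, the gp130 signalling chain that Il6ra shares with other cytokine receptors, was read by 1 tested probe. Its signal was 6.73 and 6.63 in wild type unstimulated, 6.09 and 5.49 in wild type with LPS, 6.78 and 7.03 in the labelled knockout unstimulated and 6.75 and 6.64 in the labelled knockout with LPS. The wild-type LPS arrays were the lowest, and the lower of them was not detected. LPS changed Il6st by -0.89 ± 0.19 in wild type (limma's adjusted p = 0.00442) and by -0.21 ± 0.19 in the labelled knockout, with intervals from -1.32 to -0.46 and from -0.64 to 0.22. Under LPS the genotypes differed by 0.91 ± 0.19 (limma's adjusted p = 0.00491). Neither value reached 2-fold. Without replicate 1 of wild type with LPS they were -1.19 and 1.21 as fitted, without a bound. That group then rests on 1 array that did not detect the probe, so a 2-fold change cannot be read from them. A second Il6st probe was detected on 0 arrays.

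Il15ra, the chain that binds IL-15 with high affinity and presents it to other cells, was read by 5 probes, all of them tested. Both RefSeq promoter entries of the gene (GRCm38.p6, each 250 bases before to 50 after a transcription start) are shown with that of Il6ra, because these genes moved in opposite directions under LPS. The first Il15ra entry lies at chr2:11705043-11705342 on the + strand, the second at chr2:11705462-11705761 on the + strand, and that of Il6ra at chr3:89913147-89913446 on the - strand.
Il15ra, first start: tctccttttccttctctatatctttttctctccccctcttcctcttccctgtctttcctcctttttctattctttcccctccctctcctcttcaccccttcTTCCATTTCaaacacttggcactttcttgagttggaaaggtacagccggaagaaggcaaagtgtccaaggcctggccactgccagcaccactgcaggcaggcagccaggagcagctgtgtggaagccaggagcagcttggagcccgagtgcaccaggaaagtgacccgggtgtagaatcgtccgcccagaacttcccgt
Il15ra, second start: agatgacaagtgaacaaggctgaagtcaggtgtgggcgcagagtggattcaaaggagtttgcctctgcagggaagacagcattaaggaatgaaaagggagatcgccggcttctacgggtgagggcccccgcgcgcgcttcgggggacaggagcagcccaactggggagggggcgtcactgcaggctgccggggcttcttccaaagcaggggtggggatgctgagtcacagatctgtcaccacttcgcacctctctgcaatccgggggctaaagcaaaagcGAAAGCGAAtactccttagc
Il6ra: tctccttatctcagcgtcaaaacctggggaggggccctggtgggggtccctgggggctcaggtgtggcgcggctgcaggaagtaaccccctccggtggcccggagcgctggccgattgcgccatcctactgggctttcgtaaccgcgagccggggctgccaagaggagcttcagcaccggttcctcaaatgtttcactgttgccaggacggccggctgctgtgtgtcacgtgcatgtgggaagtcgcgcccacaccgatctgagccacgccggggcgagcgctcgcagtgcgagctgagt
Capitals mark the letters GAAANNGAA on either strand, the core of the sites that interferon regulatory factors bind. These letters occur from base -149 to -141 on the - strand of the first Il15ra window and from base 31 to 39 on the + strand of the second, counted from the start, and not in the Il6ra window. They were searched after the sequences had been seen, and 8.56% of all 32851 promoter entries of the table hold them. The full interferon-stimulated response element, a longer run that contains them and is held by 3.44% of entries, was in 0 of the 8 entries of the members, which cover 7 of the 10 genes and not Il10ra, Il10rb or Il17ra. The Stat-type letters TTCNNNGAA, in 8.3% of all entries, the Bcl6-type letters TTCCTAGAA, in 0.411%, and a Stat6-type site, in 6.95%, were each in 0 of these 8, on either strand. An NF-kappaB-type site, in 4.79% of all entries, was in 2 of 8, those of Il4ra and Il21r. A match is a description of letters, not of a bound site.

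The 5 Il15ra probes rose together with LPS in wild type. The brightest, ILMN_1249759, read 5.87 and 6.10 in wild type unstimulated and 8.87 and 8.59 with LPS. In the labelled knockout it read 5.01 and 5.45 without LPS, both not detected, and 7.78 and 7.47 with LPS. The 4 groups did not overlap. LPS raised this probe by a factor of 6.72 in wild type (2.75 ± 0.19, limma's adjusted p = 6.7e-06) and at least 3.51-fold in labelled knockout cells (limma's adjusted p = 1.45e-05).

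Each of the other 4 Il15ra probes was not detected without LPS in either genotype and was detected on both wild-type LPS arrays. Against the floor of detection ILMN_1220603 rose at least 4.47-fold in wild type, ILMN_1227502 at least 4.04-fold, ILMN_1236536 at least 1.32-fold and ILMN_2431056 at least 1.08-fold, with limma's adjusted p at most 0.00115. After LPS in labelled knockout cells, ILMN_1220603 was higher by at least 2.63-fold and ILMN_1227502 by at least 1.64-fold, while ILMN_1236536 and ILMN_2431056 were detected on neither array of that group. These 4 probes passed the detection filter only through arrays on which they were high.

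Under LPS, Il15ra was lower in the labelled knockout than in wild type. On the brightest probe the difference was -1.11 ± 0.19, a factor of 2.15 (limma's adjusted p = 0.0017). In the fit over all kept probes, which called 11.6% of probes for this comparison, ILMN_1227502 was called as well, at -1.37 ± 0.14 (limma's adjusted p = 0.000142). ILMN_2431056 passed the call threshold too, but it was detected on the wild-type LPS arrays alone, at a level that did not exceed the detection floor of the labelled knockout LPS arrays, so no fold can be stated and the call is not counted as support. ILMN_1220603 differed by -0.84 ± 0.20 and was not called, and ILMN_1236536, likewise detected on the wild-type LPS arrays alone, was not called either. The call on the brightest probe fell short of 2-fold without background correction, at -0.82, from the authors' processed values, at -0.82, with a background offset of 50, at -0.99, without replicate 1 of wild type with LPS, at -0.96, and without replicate 2 of the labelled knockout with LPS, at -0.95. Its adjusted p stayed at or below 0.016 under all 19 alternatives.

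Whether the LPS effect on Il15ra itself differed between genotypes cannot be read from these probes, because each was undetected in at least 1 unstimulated group and the fitted difference then depends on signals below detection. As fitted, without a bound, it was -0.36 ± 0.26 on the brightest probe, not called, and -1.27 ± 0.20 on ILMN_1227502 and -1.22 ± 0.16 on ILMN_2431056, both called, where 4.22% of all kept probes were called. Without LPS the brightest probe was at least 1.13-fold lower in the labelled knockout, which was not called.

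**Figure D2:**
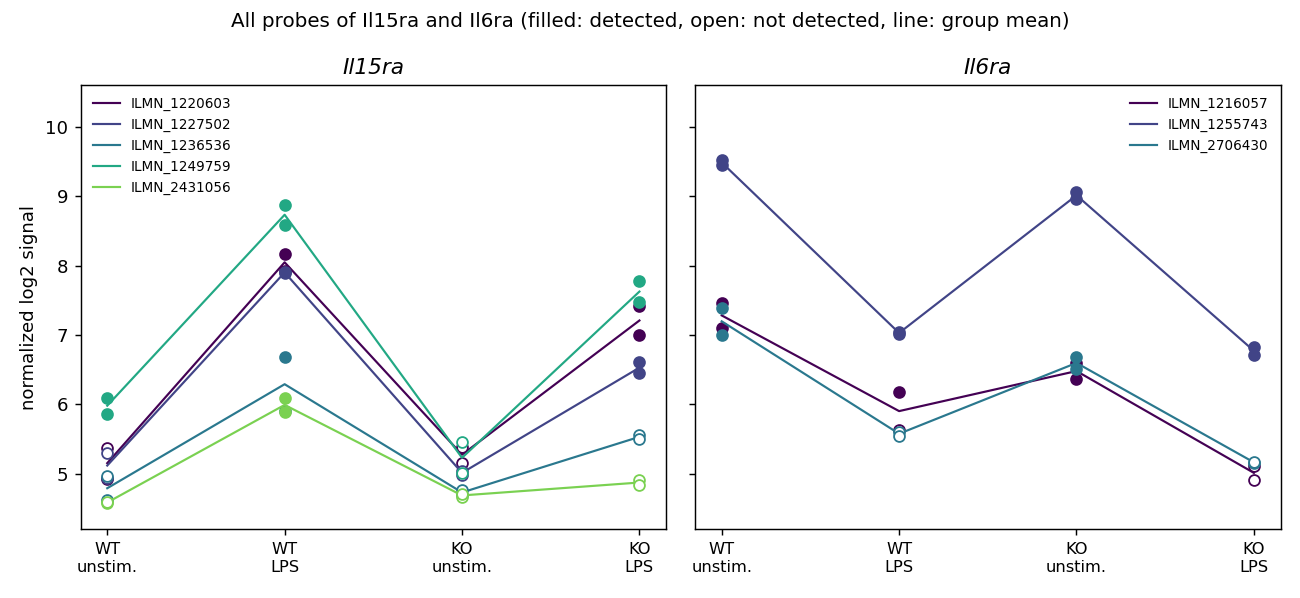
Normalized log2 signal of all 5 probes of Il15ra and all 3 probes of Il6ra on each array of the 4 groups, filled where detected and open where not, with lines through the group means. All 5 Il15ra probes are highest in wild type with LPS and all 3 Il6ra probes are lower with LPS than without it in both genotypes, while the heights of different probes cannot be compared.

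Il17ra, the shared chain of the IL-17 receptors, was read by 1 probe, which was detected with LPS but not without it. Its signal was 5.14 and 5.04 in wild type unstimulated and 6.13 and 6.35 with LPS. The labelled knockout arrays read 5.66 and 5.66 unstimulated and 7.65 and 7.45 after LPS. The LPS groups did not overlap each other or the unstimulated arrays, and the labelled knockout with LPS was the highest. The unstimulated arrays were all below detection, so their order is not read. LPS raised Il17ra at least 1.28-fold in wild type (limma's adjusted p = 0.000107) and at least 3.33-fold in labelled knockout cells (limma's adjusted p = 5.16e-06). The probe entered the test only through the LPS arrays, on which it was high.

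Under LPS, where all arrays detected it, Il17ra was higher in the labelled knockout by a factor of 2.48 (1.31 ± 0.12, limma's adjusted p = 6.98e-05). The LPS effects differed by 0.73 ± 0.18 as fitted (limma's adjusted p = 0.039), below 2-fold. Without background correction, which shrinks the folds of dim probes, the genotype difference under LPS was 0.71, and the LPS effect was 0.45 in wild type and 0.93 in the labelled knockout, none of which reached 2-fold. From the authors' processed values the genotype difference under LPS was 0.74 and the LPS effect in wild type 0.52.

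Il13ra1, which joins Il4ra in the receptor for IL-4 and IL-13, stood slightly under the 2-fold threshold for LPS in both genotypes. Its probe read 7.82 and 8.17 in wild type unstimulated and 9.14 and 8.77 with LPS, and 8.38 and 8.23 against 9.17 and 9.36 in the labelled knockout. All 4 LPS arrays lay above all 4 unstimulated arrays. The LPS effect was 0.97 ± 0.17 in wild type (limma's adjusted p = 0.00156) and 0.96 ± 0.17 in the labelled knockout (limma's adjusted p = 0.00153). Normalization by cyclic loess put both past 2-fold, at 1.01 and 1.06. Leaving out single arrays moved the wild-type effect between 0.78 and 1.15 and the labelled knockout effect between 0.87 and 1.06. Over all 19 alternatives the lowest values were 0.75 in wild type and 0.74 in the labelled knockout. The genotypes differed by 0.31 ± 0.17 with and without LPS, with intervals from -0.07 to 0.69, and the difference of the LPS effects had an interval from -0.54 to 0.54.

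Il4ra and Il21r were not well above background. The single Il4ra probe was detected on 0 of 8 arrays, with a log2 signal from 4.64 to 5.34. Of 3 Il21r probes, 1 was detected on 1 array, replicate 2 of wild type with LPS, at 5.85, and the other probes on 0. No change is given for either gene. In the reference annotation Il4ra and Il21r are adjacent genes on chromosome 7, Il15ra lies next to Il2ra on chromosome 2, and Il10rb lies between the interferon receptor genes Ifnar2 and Ifnar1 on chromosome 16.

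**Figure D3:**
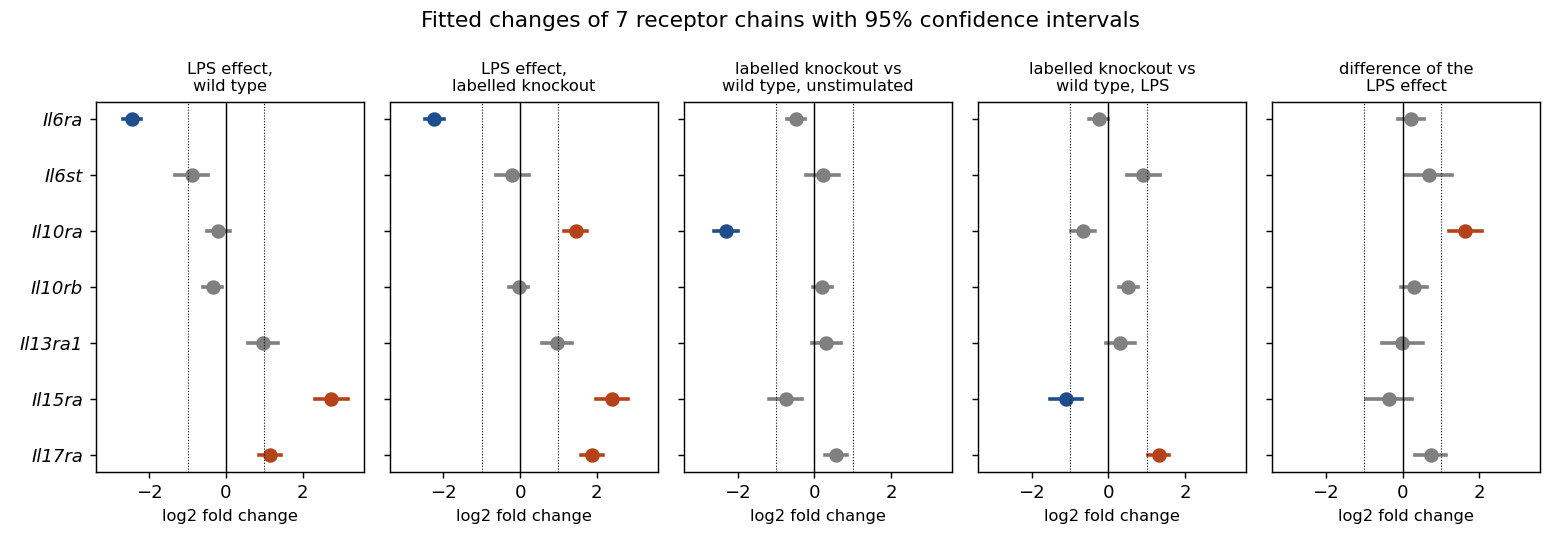
Fitted log2 fold changes of the 7 tested receptor chains in 5 contrasts, with 95% confidence intervals as lines, called genes in red (higher) or blue (lower) and others in grey, and dotted lines at 2-fold. Il6ra, Il15ra and Il17ra are called for LPS in both genotypes and Il10ra for the genotype difference without LPS, at -2.30. Values for groups in which Il15ra or Il17ra was not detected are as fitted, without a bound.

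By comparison, 3 of the 7 tested receptor chains were called for LPS in wild type, Il15ra and Il17ra higher and Il6ra lower, where 14.0% of all tested genes were called. For Il17ra this call rests on the fitted value with unstimulated signals below detection, and the bound is only 1.28-fold. For LPS in the labelled knockout 4 of 7 were called, Il10ra, Il15ra and Il17ra higher and Il6ra lower, with 14.8% of all genes. In the unstimulated labelled knockout 1 of 7 differed from wild type, Il10ra, with 8.50% of all genes called. Under LPS 2 of 7 differed, Il17ra higher and Il15ra lower, with 11.2% of all genes. The LPS effect differed between genotypes for 1 of 7, Il10ra, with 3.83% of all genes. The median change of the 7 chains was -0.20 for LPS in wild type and 0.96 for LPS in the labelled knockout, beside -0.12 over all genes in both. These counts and medians cover only chains that passed the detection filter, Il17ra through its LPS arrays alone. The chains were also chosen with earlier results of these data known, so the counts and medians are description only.

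The genes whose signal followed each called chain most closely over the 8 arrays, which are 4 pairs of technical replicates, were found by Pearson's r. They were Pla2g15, a lysosomal phospholipase, for Il6ra (r = 0.997), Rnf31, the catalytic subunit of the linear ubiquitin ligase, for Il15ra (r = 0.997), Samsn1, an adaptor protein of haematopoietic cells, for Il17ra (r = 0.996) and Lrrc49 for Il10ra (r = 0.985). With 8306 genes and 4 groups, values of this size describe a shared order of groups only.

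Of the ligands of these receptors 5 of 22 were tested. With LPS 4 of 5 were called higher in wild type, where 7.52% of all genes were, and 5 of 5 in the labelled knockout, where 7.49% were. Il27 and Il7 passed the detection filter through LPS arrays alone, and Il6 through these and 1 unstimulated array, so their direction was fixed by the filter and the counts support nothing. Il6, the ligand of the Il6ra chain that fell, was not detected in wild type unstimulated and read 7.45 and 7.66 with LPS, at least 3.18-fold higher (limma's adjusted p = 5.96e-06). On the labelled knockout arrays its signal was 5.34 and 5.87 without LPS, the former not detected, and 12.95 and 13.09 with LPS. The difference from wild type under LPS was 5.46 ± 0.18 (limma's adjusted p = 1.36e-07).

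Osm, oncostatin M, which signals through Il6st, read 8.84 and 8.80 in wild type unstimulated, 9.74 and 9.49 with LPS, 11.23 and 11.09 in the labelled knockout unstimulated and 13.45 and 13.28 in the labelled knockout with LPS. It was higher in the labelled knockout by 2.34 ± 0.13 without LPS and by 3.75 ± 0.13 with it (limma's adjusted p = 3.29e-06 and 1.7e-07). Il15 followed its receptor chain, with an LPS effect of 2.79 ± 0.11 in wild type and 2.09 ± 0.11 in the labelled knockout, and a genotype difference under LPS of -0.50 ± 0.11 that did not reach 2-fold. Il27, a further ligand of Il6st, and Il7 were not detected without LPS. Il27 was at least 5.83-fold and 5.94-fold higher with LPS in wild type and the labelled knockout, and its difference between genotypes under LPS was -0.05 ± 0.13. Il10, Il4, Il13, Il17a and Il21 failed the detection filter.

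**Figure D4:**
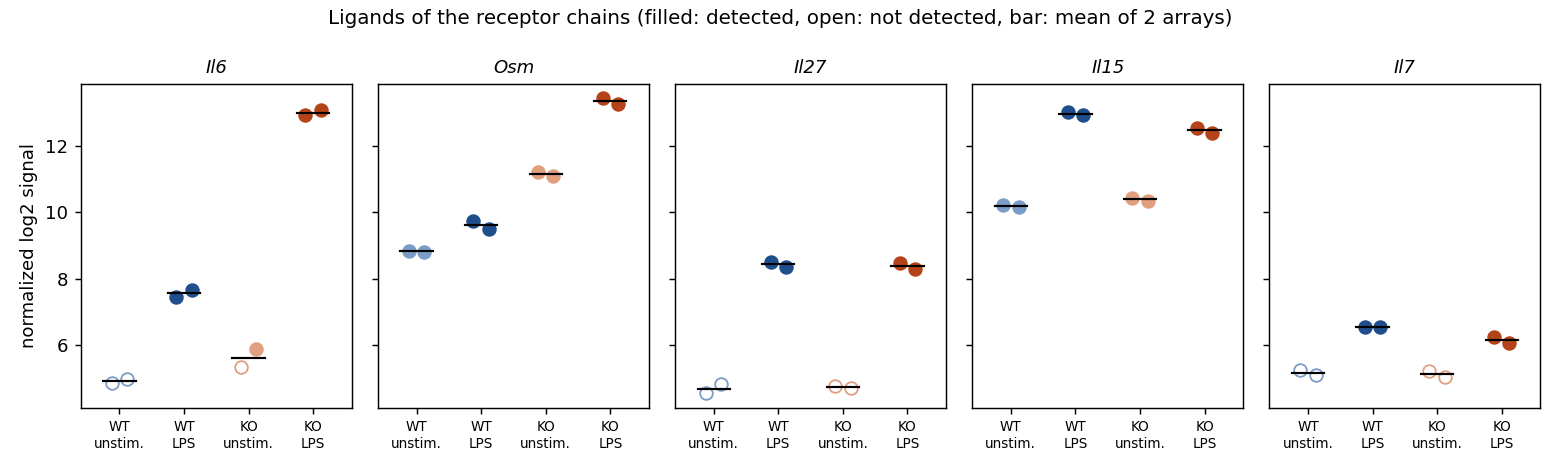
Normalized log2 signal of the 5 tested ligands on each array, filled where detected and open where not, with a bar at the mean of 2 arrays. Il6 and Osm are highest in the labelled knockout with LPS, at 12.95 and 13.09 and at 13.45 and 13.28, whereas Il15 is highest in wild type with LPS.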

How the data were processed

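Total RNA of bone marrow-derived macrophages was read on 8 single-colour Illumina bead arrays. The authors deposited a mean bead intensity and a detection p-value for each of 45281 probes, not normalized between arrays as the differing medians show, and a second table of processed intensity on a linear scale with column medians of 121.0, normalized by a method that no source used here names. The submitters' processing notes name GenomeStudio. Every value column belonged to a sample of the series.

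The deposited raw intensities were corrected by the nec method of limma 3.58.1 in R 4.3.3 (offset 16, with control levels derived from detection p-values) and quantile-normalized on the log2 scale. The detection filter (p under 0.01, 2 arrays or more) kept 14418 probes. Of these 12542 had 1 gene symbol in the platform annotation, updated to GRCm38.p6 names. The brightest probe stood for a gene, leaving 8306. One limma model with 4 group means, 4 residual and 4.57 prior degrees of freedom gave 5 contrasts, each adjusted by Benjamini-Hochberg over all genes. Further probes come from the same model over all kept probes. For a lower bound, each array of the dim group was given its lowest detected signal, or the probe's own where that was higher, and the mean of these was compared with the bright group's mean.

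Members and gene lists were chosen with earlier results of these data known. The rule for named genes took all members, the gene most like each called member, and up to 4 called genes with the largest change of each further list. Csf1r, Adgre1, Itgam, Cd3d, Cd3e, Cd3g, Cd22, Prf1, Mmp8, Ctsg, Cebpe, Cd177, S100a8 and S100a9 are named outside the rule, as cell type markers. The fit was tested on simulated data. Alternatives changed the background correction, offset, normalization, starting table, filter, probe rule, variance prior and replicate block, and left out each array. Replicate numbers did not pair the arrays, since the correlations of same-numbered deviations ran from -0.031 to 0.0084.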

Additional observations from a re-analysis of the deposited data

Results flagged for a closer look

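The LPS effect on Il10ra differed between genotypes by 1.64 ± 0.19 in a test of the difference itself (limma's adjusted p = 0.00218). The effect was -0.20 in wild type and 1.44 in the labelled knockout. Of the granulocyte marker list, which also differed between genotypes, 6 of 15 tested genes had a called difference of the LPS effect in the same direction, where 1.96% of all genes did, and 0 in the other. Among the listed genes Prtn3 was detected on no labelled knockout array, Mmp8 on the labelled knockout LPS arrays alone, and Mpo on only some labelled knockout arrays. Their fitted differences depend on signals below detection, so the count is description only. The part of these markers in the Il10ra result was not tested.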

How the results depend on the processing

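Of 665 recomputed log2 changes of the 7 chains, 632 kept their direction and side of the threshold, 11 lost a call, 8 gained one and 14 changed sign, all of the latter among values that were not called. The count of chains called for the genotype difference under LPS, 2 as reported, was 0 without background correction, 0 from the authors' processed values and 1 with an offset of 50, and ran from 1 to 2 when single arrays were left out, with 1 without replicate 2 of the labelled knockout with LPS. All other counts of called chains stayed within 1.5 times, though the chains behind a count could change. Without replicate 1 of wild type with LPS, the genotype difference under LPS fell short of 2-fold for Il15ra. For Il6st it was then 1.21 as fitted, against an array that did not detect the probe.

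The sign changes were these. The difference of the LPS effects for Il13ra1, -0.00088 as reported, was 0.033 without background correction, 0.015 with an offset of 50, 0.045 with cyclic loess, 0.025 from the authors' processed values, and ran from -0.19 to 0.19 when single arrays were left out, with 0.17, 0.19, 0.07 and 0.09 without replicate 1 of wild type unstimulated, wild type with LPS, labelled knockout unstimulated and labelled knockout with LPS. With median scaling, which moved the median of all genes for the genotype difference under LPS from -0.028 to -0.29, Il13ra1 changed by -0.0049 there and the difference of LPS effects for Il6ra was -0.034. The LPS effect on Il10rb in the labelled knockout was 0.10 with cyclic loess, 0.25 with the mean of all kept probes and ran from -0.11 to 0.024 when single arrays were left out, with 0.024 without replicate 2 of the labelled knockout with LPS, and its unstimulated genotype difference was -0.0052 with the mean of all kept probes. The cause was not tested.

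Over all genes, 1165, 1233, 706, 927 and 318 were called in the 5 contrasts in the order given above, and 635, 641, 327, 412 and 122 without background correction, 637, 651, 340, 419 and 120 from the authors' processed values, and 1948, 2015, 1142, 1666 and 608 when every kept probe was tested. An offset of 50 gave 197 for the last contrast. With median scaling the calls for LPS in the labelled knockout were 497 higher and 939 lower in place of 622 and 611, those for the genotype under LPS 318 and 769 in place of 514 and 413, and those for the difference of the LPS effects 97 and 316 in place of 163 and 155. With the replicate block the counts of called chains were 3, 4, 1, 2 and 1, as without it, and no call of a chain changed. Signals near background limit Il17ra, Il15ra and Il6st.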

Other observations

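Other cytokine receptor chains gave 11 tested genes of 35. In the labelled knockout Ifngr1, a chain of the interferon-gamma receptor, was lower by a factor of 2.82 without LPS and of 4.74 with it (limma's adjusted p = 5.53e-05 and 4.2e-06). Csf3r, the receptor of granulocyte colony-stimulating factor, was higher under LPS by 1.13 ± 0.17 (limma's adjusted p = 0.00098). Il20rb was not detected without LPS and was at least 1.62-fold and 2.44-fold higher with it in wild type and the labelled knockout. Ifnar2, a chain of the type I interferon receptor, rose with LPS in the labelled knockout by 1.26 ± 0.11 and changed in wild type by 0.34 ± 0.11, not called.

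Downstream of these receptors, 3 of 9 tested Janus kinases and Stat factors rose with LPS in wild type and 4 of 9 in the labelled knockout, with 0 lower, beside 7.52% and 7.49% of all genes that rose. Jak2 changed by 2.56 ± 0.11 and 2.82 ± 0.11, Tyk2 by 1.38 ± 0.14 and 1.36 ± 0.14 and Stat2 by 1.87 ± 0.11 and 1.46 ± 0.11. Stat5a changed by 0.47 ± 0.12 in wild type, not called, and by 1.39 ± 0.12 in the labelled knockout. Among 22 tested feedback and adaptor genes, 4 were called higher and 0 lower in unstimulated labelled knockout cells, beside 4.54% of all genes called higher. Cish, a Stat5-induced inhibitor, read 5.87 and 5.65 in wild type unstimulated, the latter not detected, and 9.02 and 9.29 in the labelled knockout, a change of 3.39 ± 0.15 (limma's adjusted p = 1.24e-06). Socs2, a further inhibitor of this family, was detected on 0 wild-type arrays and on all 4 arrays labelled knockout, at least 9.44-fold higher without LPS and 12.4-fold higher with it. Socs3, which binds and inhibits Il6st, was higher by 2.20 ± 0.11 without LPS. Socs1 was detected only in the labelled knockout with LPS, at least 2.26-fold higher than in wild type with LPS. Il20rb, Socs2 and Socs1 passed the detection filter only through the arrays on which they were high.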
